A study of Mus musculus with 6 samples.

Results

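The 10 genes described here encode the transcriptional coactivators YAP (Yap1) and TAZ (Wwtr1), their DNA-binding partners of the TEAD family (Tead1, Tead2, Tead3), the kinase LATS2 (Lats2), and the genes Ctgf, Cyr61, Ankrd1 and Amotl2, which are widely used as readouts of YAP and TAZ. They were taken by gene symbol from the 52550 genes of the deposited table, where 11 rows carry a member symbol because Lats2 appears under 2 identifiers. All 10 were among the 16402 genes with enough counts to be tested. RNA-seq was performed on bone marrow-derived macrophages from C57BL/6 mice of the genotype MSR1 KO (3 libraries) or MSR1 WT (3 libraries), where MSR1 is macrophage scavenger receptor 1. In both groups the marrow cells were grown with macrophage colony-stimulating factor at 25 ng/ml for 7 days, and the macrophages were then kept with bone marrow stem cells (BMSCs) across a Transwell membrane for 48 h. Every library came from such a co-culture, so macrophages alone were not compared. The age and sex of the mice, and whether a library came from 1 animal or from pooled animals, are not stated. P-values therefore measure the spread between these libraries.

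The Hippo pathway is a kinase cascade in which MST kinases activate LATS kinases, which phosphorylate YAP and TAZ and keep them out of the nucleus. When the cascade is quiet, for instance in cells spread on a stiff surface, YAP and TAZ enter the nucleus, bind TEAD factors and switch on target genes. The pathway is best known for organ size control and for mechanical responses of adherent stromal and epithelial cells, and its targets include genes that feed back on it. RNA levels do not report the phosphorylation or the location of YAP and TAZ.

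Total counts per library ranged from 36143518 to 47417448. Msr1 had a CPM value (counts scaled to a common library size) of 59.0, 45.8 and 43.0 in MSR1 KO and of 183, 193 and 223 in MSR1 WT. It was thus lower in every MSR1 KO library but not absent from them, at a log2 fold change of -2.02 (SE 0.135) with an adjusted p of 0.00124 in edgeR's quasi-likelihood test. All later adjusted p-values come from this 2-sided edgeR test of MSR1 KO against MSR1 WT, with Benjamini-Hochberg adjustment over the 16402 tested genes. A gene is said to have fallen or risen where its adjusted p was under 0.05. Where the text speaks of a DEG, a differentially expressed gene, the study's looser definition is meant, which is a fold change above 1.5 with an unadjusted p under 0.05. The median log2 fold change over all tested genes was -0.0023.

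The macrophage identity of the samples was checked with a list of marker genes, chosen with earlier results of these data known. Macrophage markers were abundant in both genotypes, with a summed level of 23600 to 24600 CPM in MSR1 KO and 23600 to 26100 CPM in MSR1 WT. They were led by Lyz2 (13400 CPM in MSR1 KO, 14900 in MSR1 WT), Csf1r (4540 and 4410 CPM) and Adgre1 (2360 and 2250 CPM), and none of these 3 passed the test. Of the 12 macrophage markers tested, 2 rose and 0 fell, against 2.25% and 2.66% of all tested genes. At an unadjusted p under 0.05, 5 of the 12 were higher and 1 was lower, and DESeq2 called 3 higher and 0 lower. For 6 of the 12 every MSR1 KO library was above every MSR1 WT library, against 12.1% of all tested genes. The markers that rose were Fcgr1, an IgG receptor, at 1.14 (edgeR adjusted p = 0.0182) and Aif1, named after its value was seen, at 0.67 (adjusted p = 0.0204). The count of 2 was 0 with MSR1 WT replicate 1 left out, 1 with any MSR1 KO library or MSR1 WT replicate 2 left out, and 2 with MSR1 WT replicate 3 left out. Cx3cr1 had a log2 fold change of 1.10 with overlapping groups (edgeR adjusted p = 0.339).

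Stromal cell and fibroblast markers were also detected, and no gene of this list of 16 was at 0. Their summed level was 2210 to 2860 CPM in MSR1 KO and 3040 to 3870 CPM in MSR1 WT, so that the groups did not overlap and the MSR1 WT mean was 1.40 times the MSR1 KO mean. The most abundant were Acta2 (504 ± 61.1 CPM in MSR1 KO, 808 ± 110 in MSR1 WT, mean ± SD, n = 3), Col1a2 (516 ± 85.6 and 678 ± 54.7) and Col1a1 (490 ± 87.5 and 586 ± 76.2). Of the 16 tested, 5 fell, against 2.66% of all tested genes. The 5 were Pdgfra (log2 fold change -1.19) and Acta2 (-0.68) and, named after their values were seen, Cxcl12 (-1.11), Pdgfrb (-0.87) and Tagln (-0.64). None of the 16 rose by edgeR at an adjusted p under 0.05 (1 at an unadjusted p under 0.05, 1 by DESeq2). A log2 fold change above 0 was seen for 3 of the 16. These were Thy1 at 1.31 (edgeR adjusted p = 0.0907) and, named after their values were seen, Lum at 0.46 (0.79) and Runx2 at 0.02 (0.961). The count of 5 became 0 when replicate 1 of either genotype was left out, and 1 when MSR1 KO replicate 3 was. Endothelial markers summed to 67.0 to 79.0 CPM in MSR1 KO and 51.2 to 76.9 CPM in MSR1 WT, with Cdh5, Emcn and Kdr the most abundant and Vwf (-1.36) and Kdr (0.79) the most changed. None of the 6 passed edgeR's adjusted test, against 1 at an unadjusted p under 0.05 and 1 by DESeq2, which was Vwf. Epithelial markers were near the limit of detection at 0.337 to 2.12 CPM in all, with only Cdh1 tested (0.70, edgeR adjusted p = 0.528), Epcam and Krt18 below 0.3 CPM on average, and Krt8 at 0 in every library. In such bulk samples, fewer cells of a type and less RNA per cell cannot be told apart.

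TEAD factors recognise the DNA letters GGAATG, which read CATTCC on the opposite strand. The 250 bases before the RefSeq transcription start (build GRCm38.p6) were searched for these letters on both strands, and no match overlaps another in the windows shown. RefSeq windows were matched for 8 of the 10 members, without Tead1 and Ctgf. The letters were present for 6 of the 8 (75.0%), namely Yap1, Wwtr1, Tead3, Cyr61, Ankrd1 and Amotl2, and were not found in these windows for Tead2 and Lats2. Among the 27025 genes with a RefSeq window that served as the background, 12.6% held them. Several members are established TEAD targets, so their share is a description of the list. The windows of Cyr61 and Tead3, which fell, and of the targets Amotl2 and Ankrd1, which had opposite signs, are shown 5′ to 3′ on the strand of the gene, with the matching letters in capitals.
Cyr61 (chr3:145649986-145650235, minus strand): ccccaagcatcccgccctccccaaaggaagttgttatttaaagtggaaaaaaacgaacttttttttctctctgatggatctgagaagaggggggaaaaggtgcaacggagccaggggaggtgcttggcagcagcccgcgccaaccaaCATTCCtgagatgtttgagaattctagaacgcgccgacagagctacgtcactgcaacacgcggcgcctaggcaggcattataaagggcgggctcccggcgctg
Tead3 (chr17:28350806-28351055, minus strand): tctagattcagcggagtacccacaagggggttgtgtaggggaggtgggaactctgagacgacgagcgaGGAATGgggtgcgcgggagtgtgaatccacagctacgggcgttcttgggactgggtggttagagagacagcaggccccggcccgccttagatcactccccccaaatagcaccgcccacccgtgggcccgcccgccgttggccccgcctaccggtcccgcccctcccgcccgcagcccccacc
Amotl2 (chr9:102717554-102717803, plus strand): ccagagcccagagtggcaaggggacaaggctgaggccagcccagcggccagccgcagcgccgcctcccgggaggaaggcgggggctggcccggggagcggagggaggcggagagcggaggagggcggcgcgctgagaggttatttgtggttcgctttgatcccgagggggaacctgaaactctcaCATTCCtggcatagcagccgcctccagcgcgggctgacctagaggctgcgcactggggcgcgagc
Ankrd1 (chr19:36119845-36120094, minus strand): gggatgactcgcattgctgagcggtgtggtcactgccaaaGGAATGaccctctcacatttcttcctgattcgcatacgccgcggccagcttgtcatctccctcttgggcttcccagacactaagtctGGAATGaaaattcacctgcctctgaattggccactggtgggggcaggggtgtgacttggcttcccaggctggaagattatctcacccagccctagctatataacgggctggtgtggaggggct
Counted back from the start, the match begins at position -103 for Cyr61, -182 for Tead3 and -65 for Amotl2, and at positions -210 and -123 for Ankrd1. The 2 single-match targets carry the CATTCC form and Ankrd1 carries GGAATG at both places. For Tead3 the window of the most upstream of 3 RefSeq starts is shown, and the window of the next start holds CATTCC at -123 and -114. Matches in the windows of Yap1 and Wwtr1 begin at -141 and -136. A match is a run of letters and not a measured binding site, and no binding was assayed in these samples.

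Over the 10 members, 3 fell in MSR1 KO libraries (Tead3, Cyr61 and Ctgf), against a background in which 2.66% of all tested genes fell. None rose by edgeR at an adjusted p under 0.05, against 2.25% of all tested genes (1 member at an unadjusted p under 0.05, 0 by DESeq2). By the DEG definition 2 members were lower, Tead3 and Cyr61, where 5.05% of all tested genes were lower, and 0 were higher, against 3.59%. For 6 members every MSR1 KO library was below every MSR1 WT library, which held for 13.4% of all tested genes, and for 1 member, Ankrd1, every MSR1 KO library was above, which held for 12.1%. The log2 fold change was below 0 for 8 of the 10, against 50.4% of all tested genes, and the median was -0.40. The count of 3 members that fell became 0 when replicate 1 of either genotype was left out. The count over all genes also dropped, from 436 to 83 without MSR1 KO replicate 1 and to 53 without MSR1 WT replicate 1. With 3 libraries against 3, the exact 2-sided permutation test cannot go below p = 0.1, the value it gave for each of the 7 members whose groups did not overlap.

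**Figure D1:**
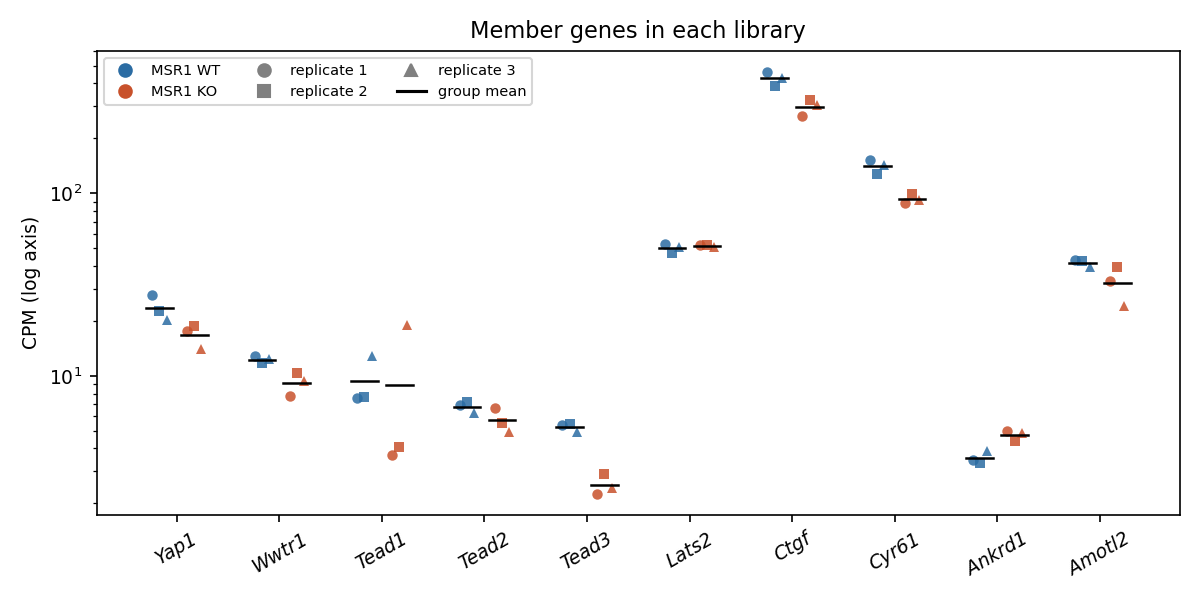
CPM of each member on a log axis in the 3 MSR1 WT (blue) and 3 MSR1 KO (red) libraries, with marker shapes for the replicates and black bars for group means. Tead3, Cyr61, Ctgf, Yap1, Wwtr1 and Amotl2 show separate groups with MSR1 KO lower, and Ankrd1 shows MSR1 KO higher. MSR1 KO replicate 3 stands far above the other MSR1 KO libraries for Tead1.

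The coactivators were lower in every MSR1 KO library without passing the adjusted test. Yap1 lies on chromosome 9 from 7931999 to 8004596 on the minus strand and encodes YAP, which has no DNA-binding domain of its own. Its level was 17.7, 18.7 and 14.0 CPM in MSR1 KO replicates 1 to 3 and 27.9, 22.6 and 20.1 CPM in MSR1 WT replicates 1 to 3. The highest MSR1 KO value was close to the lowest MSR1 WT value, and the groups did not overlap. The log2 fold change of Yap1 was -0.49 (SE 0.158, 95% interval -0.85 to -0.13), with an edgeR adjusted p of 0.132.

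Wwtr1, which encodes the YAP paralog TAZ, lies on chromosome 3 from 57455649 to 57575910 on the minus strand. Its level was 7.77, 10.3 and 9.40 CPM in MSR1 KO and 12.8, 11.7 and 12.3 CPM in MSR1 WT. The MSR1 WT libraries lay close together, and all were above the MSR1 KO libraries. The log2 fold change was -0.42 (SE 0.139, 95% interval -0.74 to -0.10; edgeR adjusted p = 0.14). Per kilobase of exon, the level of Yap1 over that of Wwtr1 was 0.960 ± 0.204 in MSR1 KO and 0.989 ± 0.141 in MSR1 WT (mean ± SD, n = 3), and the groups overlapped. The balance of the paralogs thus differed by less than the spread between libraries.

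Of the 3 TEAD members, only Tead3 passed the adjusted test, and differences between these members were not tested. Tead3, on chromosome 17 from 28331671 to 28350805 on the minus strand, encodes a TEAD factor known from placenta and muscle. It was at 2.26, 2.91 and 2.43 CPM in MSR1 KO and at 5.36, 5.46 and 4.94 CPM in MSR1 WT. Every MSR1 KO library was well below every MSR1 WT library, and the spread within either group was small beside the gap. Tead3 fell by 1.05 on the log2 scale (SE 0.184, 95% interval -1.47 to -0.63; edgeR adjusted p = 0.024), and its MSR1 WT level was 2.07 times its MSR1 KO level. It had few counts, 81 to 116 in MSR1 KO and 204 to 259 in MSR1 WT. Without MSR1 KO replicate 1, MSR1 KO replicate 3, MSR1 WT replicate 1 or MSR1 WT replicate 2 the edgeR adjusted p of Tead3 was 0.0809, 0.0633, 0.0984 and 0.0776, while the log2 fold change stayed between -1.16 and -0.97 with any library left out.

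Tead1, on chromosome 7 from 112679318 to 112906807 on the plus strand, encodes a TEAD factor expressed in many tissues. Its level was 3.68, 4.07 and 19.1 CPM in MSR1 KO and 7.54, 7.61 and 12.9 CPM in MSR1 WT. The MSR1 KO group held both the lowest values and the highest one, the latter in replicate 3, where 887 counts were assigned to Tead1 against 132 and 162 in the other MSR1 KO libraries. The log2 fold change was -0.05 (SE 0.593, 95% interval -1.42 to 1.31; edgeR adjusted p = 0.973), an interval that leaves both directions possible. Without MSR1 KO replicate 3 it was -1.26 (edgeR adjusted p = 0.0711), and without MSR1 KO replicate 1, MSR1 KO replicate 2 or MSR1 WT replicate 3 it was 0.32, 0.29 and 0.25. The size and sign of the Tead1 difference were thus set by single libraries.

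Tead2, on chromosome 7 from 45215753 to 45233644 on the plus strand, encodes a TEAD factor prominent in early embryonic tissue. It was at 6.68, 5.53 and 4.91 CPM in MSR1 KO and at 6.94, 7.17 and 6.22 CPM in MSR1 WT. MSR1 KO replicate 1 lay inside the MSR1 WT range, and the log2 fold change of -0.25 (SE 0.168, 95% interval -0.64 to 0.14) had an edgeR adjusted p of 0.488. Tead4, the remaining family member, was too low to be tested, with 4, 8 and 0 counts in MSR1 KO and 47, 16 and 0 counts in MSR1 WT. A count of 0 allows up to 3 counts, which is 0.0632 to 0.0835 CPM in these libraries, and this limit covers counting error only.

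As shares of the summed TEAD level per kilobase of exon, Tead3 made up 16.5%, 22.3% and 13% of it in MSR1 KO, and 25.6%, 27.4% and 24.6% in MSR1 WT. The groups did not overlap for Tead3, whereas they did for the other TEAD genes. Tead2 was the largest share in 5 of the 6 libraries, at 36.7% to 68.6% over all of them. In MSR1 KO replicate 3 Tead1 made up 50.4%, more than Tead2. These shares depend on each other, because they sum to the whole in each library, and the high Tead1 level lowers the other shares in MSR1 KO replicate 3.

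**Figure D2:**
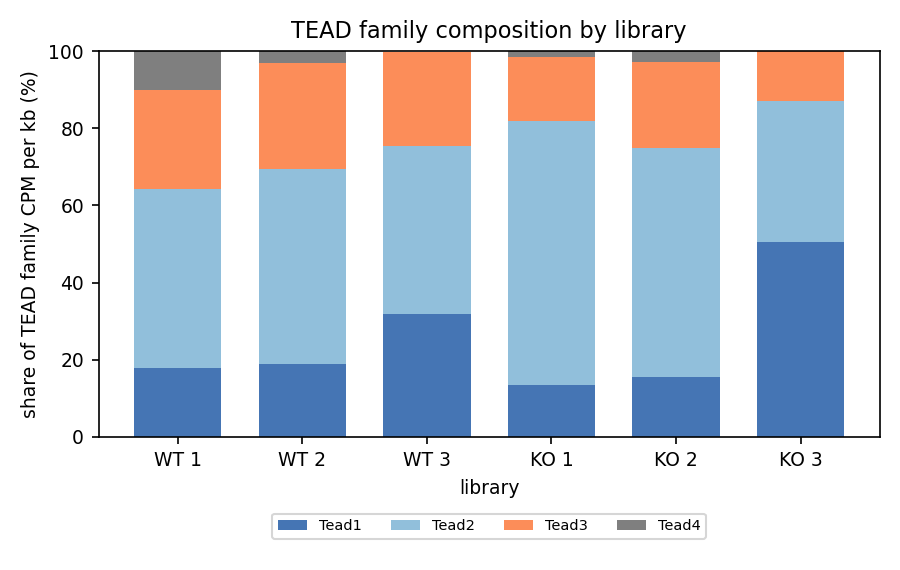
Stacked bars give, for each library, the share (%) of the level per kilobase of exon summed over Tead1 to Tead4. The Tead3 segment is 13% to 22.3% in MSR1 KO and 24.6% to 27.4% in MSR1 WT, and the Tead1 segment reaches 50.4% in MSR1 KO replicate 3.

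Lats2, the member kinase, restrains YAP and TAZ and is itself a target of them. It lies on chromosome 14 from 57689662 to 57758388 on the minus strand. Its level was 51.9, 51.9 and 50.9 CPM in MSR1 KO and 52.8, 47.1 and 50.8 CPM in MSR1 WT, and the groups overlapped throughout. The log2 fold change was 0.04 (SE 0.0763, edgeR adjusted p = 0.847), with a 95% interval of -0.14 to 0.21, the narrowest interval among the members. It was -0.0061 without MSR1 WT replicate 2. The other row with the symbol Lats2, which overlaps 89.9% of its own exon bases with the main Lats2 gene, held 8 counts in MSR1 WT replicate 3 and 0 elsewhere.

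The secreted targets Ctgf and Cyr61 were the most abundant members, and both fell. Ctgf (CCN2), connective tissue growth factor, is a matricellular protein that promotes matrix production, and its gene lies on chromosome 10 from 24595442 to 24598683 on the plus strand. It was at 266, 323 and 305 CPM in MSR1 KO and at 463, 387 and 429 CPM in MSR1 WT. Every MSR1 KO library was below every MSR1 WT library, with MSR1 KO replicate 2 and MSR1 WT replicate 2 the nearest to each other. Ctgf fell by 0.52 on the log2 scale (SE 0.0966, 95% interval -0.74 to -0.30; edgeR adjusted p = 0.0267). Its MSR1 WT level was 1.43 times its MSR1 KO level, so that it was not a DEG. The edgeR adjusted p of Ctgf was 0.0839, 0.0646, 0.112, 0.0506 and 0.0521 without MSR1 KO replicate 1, MSR1 KO replicate 3, MSR1 WT replicate 1, MSR1 WT replicate 2 and MSR1 WT replicate 3, in that order, with log2 fold changes of -0.58 to -0.43.

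An antisense gene, Gm15270, shares 665 exon bases (23.2%) with Ctgf. It held 883, 1019 and 760 counts in MSR1 KO and 1940, 1441 and 1366 counts in MSR1 WT, against 9539 to 14182 and 17712 to 19103 counts of Ctgf. Its log2 fold change was -0.73 (edgeR adjusted p = 0.0982). The strand setting of the counting is not given in the sources used here, so reads of the shared part may have come from either gene.

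Cyr61 (CCN1), on chromosome 3 from 145646976 to 145649981 on the minus strand, encodes a related matricellular protein that binds integrins. It was at 89.0, 99.7 and 91.4 CPM in MSR1 KO and at 153, 128 and 143 CPM in MSR1 WT. The order of the libraries was that of Ctgf, from MSR1 KO replicate 1 at the bottom to MSR1 WT replicate 1 at the top, and the groups were separate. Cyr61 fell by 0.60 on the log2 scale (SE 0.0893, 95% interval -0.80 to -0.39; edgeR adjusted p = 0.0172), with an MSR1 WT level 1.51 times the MSR1 KO level. The edgeR adjusted p was 0.0679 without MSR1 KO replicate 1 and 0.0734 without MSR1 WT replicate 1. Per kilobase of exon, Ctgf was 2.25 ± 0.128 times as high as Cyr61 in MSR1 KO and 2.13 ± 0.0172 times in MSR1 WT (mean ± SD, n = 3). These ratios overlapped between the groups.

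Amotl2 encodes an angiomotin-like scaffold that binds YAP and holds it in the cytoplasm, and it lies on chromosome 9 from 102716672 to 102733418 on the plus strand. It was at 33.0, 39.4 and 24.1 CPM in MSR1 KO and at 43.2, 42.5 and 39.6 CPM in MSR1 WT. The MSR1 KO values were spread widely, and MSR1 KO replicate 2 nearly reached MSR1 WT replicate 3. The log2 fold change was -0.38 (SE 0.162, 95% interval -0.75 to -0.0059), with an edgeR adjusted p of 0.257. It was -0.20 without MSR1 KO replicate 3 and -0.55 without MSR1 KO replicate 2.

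Ankrd1 had the opposite sign to Ctgf, Cyr61 and Amotl2. It encodes an ankyrin repeat protein of the muscle sarcomere and nucleus that responds to stretch, and lies on chromosome 19 from 36111965 to 36119844 on the minus strand. Its level was 4.96, 4.40 and 4.86 CPM in MSR1 KO and 3.47, 3.35 and 3.87 CPM in MSR1 WT. All MSR1 KO libraries were above all MSR1 WT libraries, while the log2 fold change of 0.41 (SE 0.169, 95% interval 0.02 to 0.80) had an edgeR adjusted p of 0.234. Ankrd1 had 143 to 226 counts per library. Per kilobase of exon, Ctgf over Ankrd1 was 63.8 ± 9.98 in MSR1 KO and 121 ± 12.2 in MSR1 WT, and Cyr61 over Ankrd1 was 28.3 ± 3.61 and 56.8 ± 5.47 (mean ± SD, n = 3). Neither ratio overlapped between the groups. This had to follow, because Ctgf and Cyr61 were lower and Ankrd1 was higher in every MSR1 KO library.

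**Figure D3:**
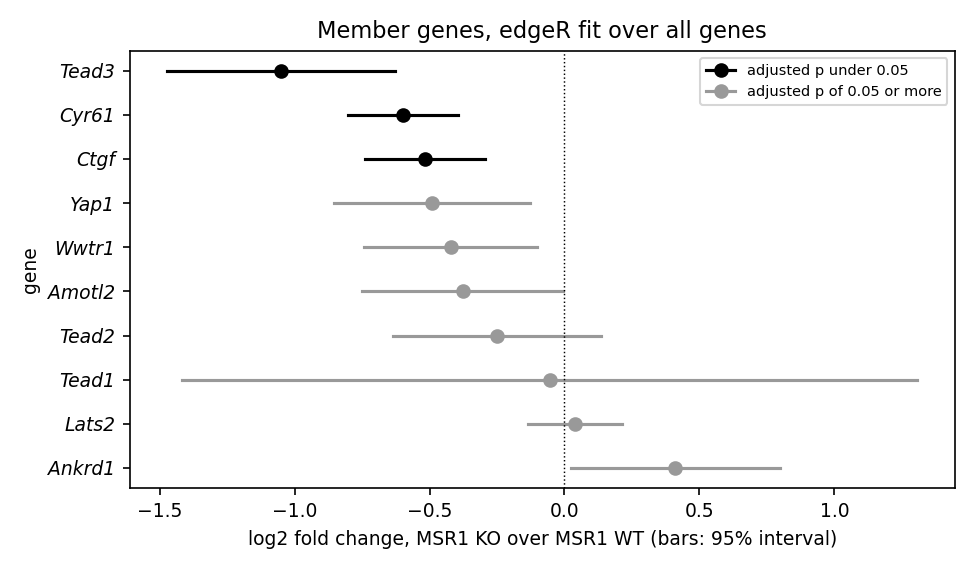
Log2 fold change of MSR1 KO over MSR1 WT for each member (points) with its 95% interval (bars), black where the edgeR adjusted p was under 0.05. Tead3, Cyr61 and Ctgf are black and below 0, Tead1 has the widest interval, and Ankrd1 lies highest at 0.41.

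Positions above are those of the deposited table, and 8 of the 10 spans were identical in GENCODE M21 (GRCm38), the exceptions being Ankrd1 and Tead3. Levels between genes were compared as CPM per kilobase of exon. In MSR1 WT the order began with Ctgf (149 ± 13.3) and Cyr61 (70.0 ± 6.37), far above Lats2 (7.21 ± 0.412) and Amotl2 (6.64 ± 0.309). Wwtr1 (2.57 ± 0.111) and Yap1 (2.54 ± 0.428) followed, and the order ended with Tead2 (1.41 ± 0.103), Ankrd1 (1.24 ± 0.0949), Tead3 (0.782 ± 0.0412) and Tead1 (0.689 ± 0.226). The neighbours Lats2 and Amotl2, Wwtr1 and Yap1, Tead2 and Ankrd1, and Tead3 and Tead1 overlapped in their library values, and the other neighbours did not. In MSR1 KO the first 6 places were the same, Ankrd1 (1.64 ± 0.104) stood above Tead2 (1.19 ± 0.188), and Tead3 (0.377 ± 0.0508) was last. The secreted targets were thus the high end of the list. The coactivators, their TEAD partners and the target Ankrd1 were the low end.

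The levels of the members were then set beside the stromal markers in each library. Relative to the MSR1 WT mean, the summed stromal level was 0.640, 0.830 and 0.665 in MSR1 KO replicates 1 to 3. In the same libraries Ctgf was at 0.623, 0.756 and 0.716. Cyr61 was at 0.629, 0.706 and 0.647. The 6 libraries ranked in the same order by the stromal sum, by Ctgf, by Cyr61 and by Wwtr1, within the MSR1 WT group as well. Tead3 was lower than the stromal sum in each MSR1 KO library, at 0.429, 0.555 and 0.463, and Ankrd1 was above 1 at 1.39, 1.23 and 1.36. The summed macrophage level was 0.979, 0.938 and 0.976 in these libraries. That sum was led by Lyz2, which had a log2 fold change of -0.15. Of the 12 macrophage markers, 9 had a log2 fold change above 0 and 3 below, with a median of 0.13. The stromal markers moved with Ctgf, Cyr61 and Wwtr1 in this way, and their part in the result was not tested.

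**Figure D4:**
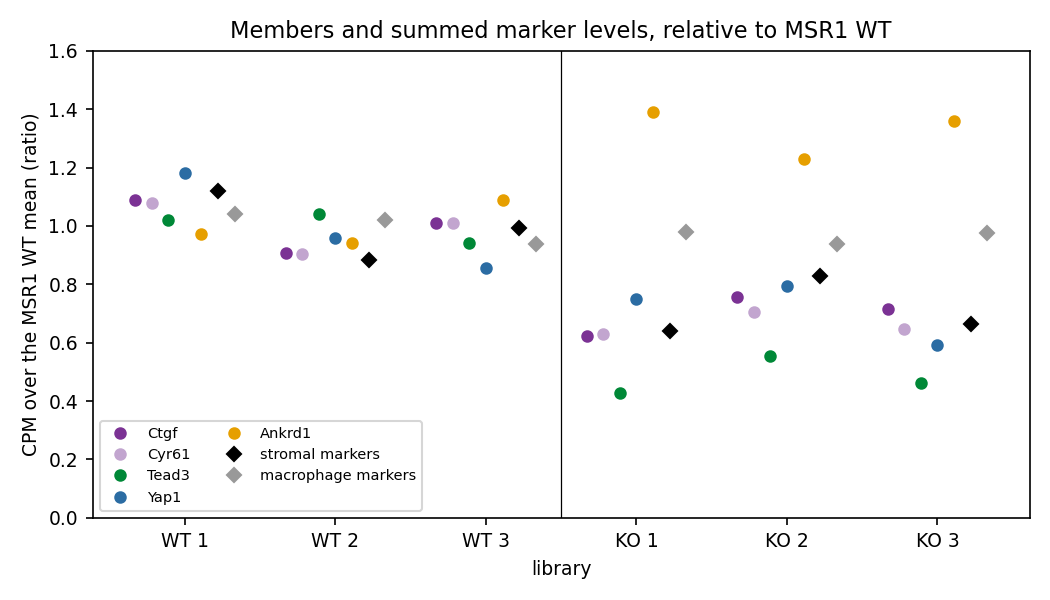
CPM of 5 members (circles) and of the summed stromal and macrophage markers (diamonds) in each library, as a ratio to the MSR1 WT mean. In the MSR1 KO libraries the stromal sum (0.640 to 0.830), Ctgf and Cyr61 lie near each other, Tead3 lies lower and Ankrd1 above 1. The macrophage sum, which is led by Lyz2, stays at 0.938 to 0.979 in these libraries.

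Upstream of the members, most of the cascade passed no test. Of 25 further Hippo kinases and regulators, 2 fell and 0 rose (7 and 1 at an unadjusted p under 0.05, 5 and 0 by DESeq2), and the median log2 fold change was -0.12. Over all tested genes 2.66% fell and 2.25% rose. For 10 of the 25 every MSR1 KO library was below every MSR1 WT library, against 13.4% of all tested genes. For 2 of the 25 every one was above, against 12.1%. The log2 fold change was below 0 for 20 of the 25, against 50.4% of all tested genes. The regulators that fell were Amotl1, an angiomotin family scaffold like Amotl2, and Ptpn14, a phosphatase that binds YAP. Amotl1 was at 17.1, 23.6 and 19.1 CPM in MSR1 KO and at 34.9, 27.6 and 30.9 CPM in MSR1 WT, a log2 fold change of -0.64 (edgeR adjusted p = 0.044). Ptpn14 was at 14.5, 15.0 and 13.1 CPM against 21.6, 21.6 and 18.7 CPM, a log2 fold change of -0.54 (edgeR adjusted p = 0.0364). The groups were separate for both genes. Next in size among the genes with a mean of at least 1 CPM were Fat4, an atypical cadherin (-0.50, edgeR adjusted p = 0.315), and Ajuba, a LIM protein that inhibits LATS kinases (-0.49, adjusted p = 0.116). Without MSR1 KO replicate 1, MSR1 KO replicate 3, MSR1 WT replicate 1 or MSR1 WT replicate 2, 0 regulators fell. With MSR1 WT replicate 3 left out 1 fell, and with genes of low count kept in the test 0 fell.

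Vestigial-like proteins bind TEAD factors in place of YAP and TAZ. Of the list of 5 TEAD family and cofactor genes, 2 were tested, and 1 of these fell, against 2.66% of all tested genes. Vgll3, the gene that fell, was at 15.2, 19.6 and 13.9 CPM in MSR1 KO and at 36.1, 29.4 and 30.2 CPM in MSR1 WT, with separate groups and a log2 fold change of -0.97 (SE 0.149, edgeR adjusted p = 0.0182). It did not pass the test when replicate 1 of either genotype was left out. Vgll4, a repressor of TEAD activity, was at 56.7 ± 3.54 CPM and 47.9 ± 1.10 CPM (mean ± SD, n = 3), a log2 fold change of 0.24 (edgeR adjusted p = 0.134). Vgll1 and Vgll2 were at 0 in every library.

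Of 17 further genes commonly used as YAP and TAZ targets, 4 fell and 1 rose. At an unadjusted p under 0.05, 7 were lower and 2 higher, and DESeq2 called 6 lower and 2 higher. The median log2 fold change was -0.23, and 11 of the 17 were below 0. For 7 of them every MSR1 KO library was below every MSR1 WT library, and for 2 every one was above. Over all tested genes the shares that fell, rose, were below or were above in this way were 2.66%, 2.25%, 13.4% and 12.1%. Gadd45a, a stress-induced growth arrest gene, was at 10.5, 8.72 and 8.71 CPM in MSR1 KO and at 19.5, 19.4 and 16.4 CPM in MSR1 WT (log2 fold change -0.99, edgeR adjusted p = 0.0127). Tgfb2, a TGF-β ligand, was at 10.7, 13.3 and 11.6 CPM against 22.8, 16.8 and 21.1 CPM (-0.77, edgeR adjusted p = 0.0295). The others that fell were Ptpn14, which is also in the regulator list, and Arhgef17 (-0.74, edgeR adjusted p = 0.0372). The gene that rose was Axl, a receptor tyrosine kinase that macrophages use in the uptake of dying cells, at 682, 774 and 648 CPM in MSR1 KO and 426, 416 and 573 CPM in MSR1 WT (0.57, edgeR adjusted p = 0.0477). Arhgef17 and Axl were named after their values were seen. Rbms3 (-0.88, edgeR adjusted p = 0.0624) and Ccdc80 (-0.77, adjusted p = 0.321) had larger differences than some of these without passing.

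The calls in this target list depended on single libraries. The count of 4 was 0 without MSR1 WT replicate 1, 1 without MSR1 KO replicate 1 or MSR1 KO replicate 3, 2 without MSR1 WT replicate 2 or MSR1 WT replicate 3, and 2 when genes of low count were kept. No gene of the list rose when MSR1 KO replicate 1, MSR1 KO replicate 2, MSR1 KO replicate 3, MSR1 WT replicate 1 or MSR1 WT replicate 2 was left out, when libraries were scaled by their totals alone, or when genes of low count were kept. Of the 17, 11 had a RefSeq window, and 3 of these (27.3%) held GGAATG or CATTCC in it.

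**Figure D5:**
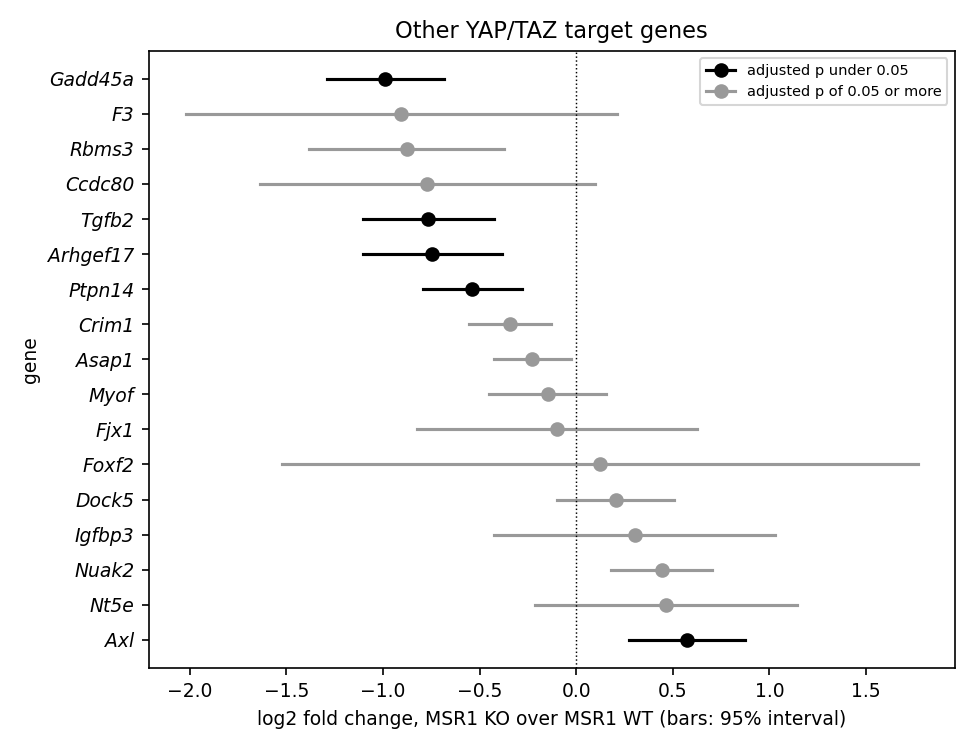
Log2 fold change of MSR1 KO over MSR1 WT for the 17 further YAP and TAZ target genes (points) with 95% intervals (bars), black where the edgeR adjusted p was under 0.05. Gadd45a, Tgfb2, Arhgef17 and Ptpn14 are black and below 0, and Axl is black and above 0.

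Relatives of the targets in the CCN and ankyrin repeat families were uneven. Of 6 listed, 4 were tested, 1 fell and 0 rose (0 at an unadjusted p under 0.05, 0 by DESeq2). Over all tested genes 2.66% fell and 2.25% rose. Wisp2 (CCN5), which fell, was at 11.8, 16.7 and 11.9 CPM in MSR1 KO and at 26.1, 21.1 and 27.3 CPM in MSR1 WT, a log2 fold change of -0.88 (edgeR adjusted p = 0.0278), and it passed only without MSR1 KO replicate 2 when single libraries were left out. Wisp1 (CCN4) was at 6.38, 9.19 and 1.29 CPM against 11.3, 10.4 and 11.6 CPM, with MSR1 KO replicate 3 far below the others (-0.99, edgeR adjusted p = 0.377). Nov (CCN3) and Ankrd23, a muscle ankyrin repeat protein related to Ankrd1, had log2 fold changes of 0.21 and 0.09 with overlapping groups. Ankrd2 was at 0 in every library, and Wisp3 was too low to be tested.

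Finally, the genes whose pattern over the 6 libraries was most like that of each member were found by the mean absolute difference in centred log2 CPM, among 13617 genes with a mean of at least 1 CPM. Cyr61 was nearest to Zc2hc1a (0.0272) and to Cnn2 (0.0298), a calponin of the actin cytoskeleton. Ctgf was nearest to the fatty acid desaturase gene Fads2 (0.0276) and, again, to Zc2hc1a (0.0486). Tead3 was nearest to Kitl (0.0651), which encodes stem cell factor, and Prss23 (0.0737). Amotl2 was nearest to Lpp (0.0450), a focal adhesion protein, and Aoc2 (0.0546). The other members also had close neighbours, except Tead1. Yap1 was nearest to Farp1 (0.0364) and Kdelr3 (0.0618). Wwtr1 was nearest to Phlda3 (0.0189) and Ppic (0.0413). Tead2 was nearest to Lrrc8b (0.0361) and Uhrf2 (0.0387), and Lats2, which hardly varied, to Zdhhc9 (0.0107) and Sgpp1 (0.0134). Ankrd1 was nearest to Msl3l2 (0.0314) and Tcof1 (0.0328). For Tead1 the nearest genes, Man2c1os (0.268) and Spint2 (0.313), were far from it, so that its pattern with a single high MSR1 KO library was not closely shared. These distances are descriptions and carry no test.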

How the data were processed

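RNA was sequenced from macrophages in the co-culture system, with 3 MSR1 KO and 3 MSR1 WT libraries grouped by their labels. The authors deposited raw counts per gene and library in a single table, without normalization. Its other deposited columns hold a signal per library (the count over a size factor), which was not used, and the authors' own log2 fold change, p-value and adjusted p-value, which were not used either. The submitters' processing notes list fastp 0.17.1, HISAT2 2.1.0, DESeq2 1.18.1 and R 3.4.3, whereas the study's methods name TopHat for alignment. Which program counted the reads, whether by strand, and on which genome build, is not given in the sources used here.

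The members were found by gene symbol, after 26 of 27 symbols turned into dates had been restored. For Lats2 the row with the most counts was used. The members, the further gene lists and the tests were chosen with earlier results of these data known, and the lists were written from general knowledge. The quasi-likelihood test of edgeR 4.0.16 (R 4.3.3; glmQLFit, then glmQLFTest) was run without covariates on genes kept by filterByExpr, with TMM scaling. A standard error is the log2 difference divided by the root of its F statistic, and p-values were adjusted over all tested genes. The study's DEG definition was kept, with an unadjusted p under 0.05 and a fold of more than 1.5. CPM values are counts over the TMM-scaled library size, and exon lengths are the union of GENCODE M21 exons. Totals of 36143518 to 47417448 counts per library bound the precision of low genes, and intervals on a difference come from the fitted model. The scripts were tested on simulated counts. Replicate libraries of a genotype differed by 25.7 to 51.2 times the sampling noise (chi-square over its degrees of freedom), so none was a copy of another. 

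Named genes were the members, Msr1, up to 4 genes per pathway list with the largest difference among those averaging 1 CPM or more, the 3 most abundant and the 2 most changed of each marker list, and the 2 genes nearest to each member. Genes outside this rule are marked in the text. Alternatives were DESeq2 1.42.0, other scalings, other count filters (none, or a minimum of 10 counts per library), a block for the replicate number, leaving out each library, another exon length and another prior count than 2 for the nearest genes. Protein sequences were not analysed here.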

Additional observations from a re-analysis of the deposited data

How the results depend on the processing

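The directions of the members other than Tead1 and Lats2 were the same under all 12 alternatives, and none of the 7 members outside the test threshold came to pass it. Tead3 ranged from -1.16 to -0.97 on the log2 scale, Ctgf from -0.58 to -0.43 and Cyr61 from -0.67 to -0.54, with adjusted p from 0.000174 to 0.0984, 0.000203 to 0.112 and 2.72e-06 to 0.0734. Both scalings, both count filters and DESeq2 left 3 members called lower. Leaving out each library gave 0 to 3 members lower by adjusted p (0 without MSR1 KO replicate 1 or MSR1 WT replicate 1) and 1 to 3 members that were lower DEGs. Leaving out a library also moved the counts over all genes, giving 53 to 372 genes lower (436 with all libraries) and 18 to 407 higher (369 with all libraries). DESeq2 called 850 lower and 727 higher, and without a filter 288 and 237 were called, and the cause was not tested. Without single libraries Tead1 ranged from -1.26 to 0.32, turning to 0.32, 0.29 and 0.25 without MSR1 KO replicate 1, MSR1 KO replicate 2 and MSR1 WT replicate 3, and Lats2 ranged from -0.0061 (without MSR1 WT replicate 2) to 0.0757. With the replicate number as a block, 0 members, 78 genes lower and 59 higher were called over all genes, and the adjusted p was 0.0688 for Tead3, 0.0893 for Ctgf and 0.063 for Cyr61. The deviations of same-numbered libraries correlated at -0.026 to 0.019, which shows no sign of pairing, and no source says what a number marks. Scaling moved the median of all genes to between -0.0342 and 0.0027. With the longest transcript as length, 8 of the 10 levels per kilobase moved by more than their SD, and Yap1 (4.46) stood above Wwtr1 (2.61). A prior count of 0.5 kept both nearest genes for 8 of the 10 members. The search of protein motifs was not run. Precision is limited by 3 libraries per genotype and, for Tead3 and Ankrd1, by counts of at most 259.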
